A study of Mus musculus with 27 samples.

Results

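The genes described here are 10 genes of fatty acid uptake and mitochondrial fatty acid oxidation, listed by symbol and followed in embryonic mouse hearts of 6 genotypes. They are Lpl, Cd36, Fabp3, Cpt1b, Acadvl, Acadl, Acadm, Hadha, Ppara and Ppargc1a. Of the 10, 9 were measured by a probe set of their own among the 19935 genes tested. Cpt1b, the muscle form of carnitine palmitoyltransferase 1, shares its probe set with Gm44502 in the platform annotation and has no value here. For Fabp3 and Ppargc1a, which have 2 probe sets each, the one with the higher mean over all arrays was used.

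Whole hearts were dissected at stage E11.5 from mice of a mixed C57Bl/6/BLKSW background, and total RNA was hybridised to Affymetrix arrays, with 27 arrays in all. The groups were wild type (n = 6), Brg1+/- (n = 6), Tbx5+/- (n = 5), Nkx2-5+/- (n = 4) and the compound heterozygotes Tbx5+/- Brg1+/- (n = 3) and Nkx2-5+/- Brg1+/- (n = 3). The heterozygotes carry a deletion of 1 copy of the named gene, and the labels name no Cre line or transgene, no treatment and no allele beyond these. The Brg1 protein is a motor subunit of BAF chromatin remodellers and is the product of Smarca4, while the T-box protein Tbx5 and the homeodomain protein Nkx2-5 are transcription factors that pattern the heart. The comparisons ask how each heterozygous state differs from wild type, and whether the outcome of halving a factor differs when Brg1 is halved too. The labels do not say that the arrays of a group come from separate embryos or litters, so p-values measure the spread between these arrays, which may in part be technical.

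Cardiac muscle takes up fatty acids that lipoprotein lipase (Lpl) frees from circulating triglyceride, moves them across the membrane with the help of Cd36, and carries them in the cytoplasm on Fabp3, the heart-type fatty acid binding protein. Acyl groups enter the mitochondrion as carnitine esters through Cpt1b and are shortened in cycles that begin with a chain-length-specific acyl-CoA dehydrogenase (Acadvl for very long, Acadl for long and Acadm for medium chains) and go on in the trifunctional protein, whose alpha subunit is Hadha. Ppara, a nuclear receptor activated by fatty acids, and its coactivator Ppargc1a drive many of these genes in the adult heart, whereas the embryonic heart is known to rely mainly on glucose and lactate, with fatty acid oxidation rising after birth.

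All values are RMA log2 signals, on which a difference of 1 is a doubling. Levels are not compared between probe sets, with these exceptions. A gene's signal is in places ranked among those of all genes, and within-array differences are followed between groups. Smarca4 was called lower in Brg1+/- hearts (log2 difference -0.75, limma adjusted p = 0.000311) and in Nkx2-5+/- Brg1+/- hearts (-0.62, adjusted p = 0.0391), and Nkx2-5 was called lower in Nkx2-5+/- hearts (-0.85, adjusted p = 0.007). Smarca4 in Tbx5+/- Brg1+/- hearts (-0.35, adjusted p = 0.979) and Nkx2-5 in Nkx2-5+/- Brg1+/- hearts (-0.56, adjusted p = 0.521) were below wild type without passing the test. The Tbx5 signal was not lower in Tbx5+/- hearts (0.23, adjusted p = 1), and whether that probe set lies in the deleted part is not given in the sources used here, so it does not check those labels. Single arrays departed from these group patterns. The array labelled Nkx2-5+/- replicate 3 had a Smarca4 signal of 9.57, the lowest among arrays labelled with both Brg1 copies and inside the range of 9.26 to 9.60 of Nkx2-5+/- Brg1+/- arrays, and a Nkx2-5 signal of 9.39, within the wild-type range of 9.17 to 9.96. Nkx2-5+/- replicate 1 (9.89) and Tbx5+/- replicate 1 (9.92) were also below the wild-type Smarca4 range of 9.95 to 10.16, by less. The array labelled Tbx5+/- Brg1+/- replicate 3 had a Smarca4 signal of 10.01, within the wild-type range, and Nkx2-5+/- Brg1+/- replicate 2 had a Nkx2-5 signal of 9.24, within the wild-type range of that gene. Most counts and values of the 9 genes and of the gene lists in comparisons with Nkx2-5+/- hearts are given with and without the array labelled Nkx2-5+/- replicate 3. Likeness of pattern and the steps in the order of groups are given over all arrays. The tissue label matched its markers, since the 18 cardiomyocyte markers stood above 71.9% (Tcap) to 99.98% (Actc1) of genes, and Tnnt2 above 99.9%. The liver list was uneven, with its highest mean, 7.86, on wild-type replicate 3.

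The promoter table of RefSeq (GRCm38.p6, 250 bases before to 50 after the start) held 8 of the 10 genes, and Lpl and Cpt1b were not matched. The 100 bases before the start are shown for the 5 matched genes that were lower in Nkx2-5+/- hearts, because these are the promoters of the genes that moved together. Each is written 5′ to 3′ on the strand of its gene.
Acadl, chr1:66863310-66863409, minus strand: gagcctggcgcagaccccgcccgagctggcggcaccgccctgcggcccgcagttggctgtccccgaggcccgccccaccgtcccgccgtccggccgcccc
Acadm, chr3:153944644-153944743, minus strand: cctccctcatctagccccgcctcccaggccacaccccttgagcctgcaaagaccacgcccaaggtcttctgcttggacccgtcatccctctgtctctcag
Fabp3, chr4:130308638-130308737, plus strand: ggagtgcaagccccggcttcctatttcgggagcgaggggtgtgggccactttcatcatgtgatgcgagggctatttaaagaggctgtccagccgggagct
Ppargc1a, chr5:51567726-51567825, minus strand: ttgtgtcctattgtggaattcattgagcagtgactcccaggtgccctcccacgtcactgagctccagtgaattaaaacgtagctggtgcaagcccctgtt
Hadha, chr5:30154981-30155080, minus strand: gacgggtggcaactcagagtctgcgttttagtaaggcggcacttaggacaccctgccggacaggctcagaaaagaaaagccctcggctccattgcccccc

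Both strands of the 300-base windows were searched for exact letters associated with factors of this pathway or of the design. The half-site bound by nuclear receptors, AGGTCA or TGACCT on the other strand, was in 3 of the 8 windows, those of Acadm, Acadvl and Cd36, and in 16.3% of all 32851 promoters of this length. This motif was added after the others had been searched. The 50 bases that hold it are shown with the half-site in capitals, since these are the matches among the members.
Acadm, chr3:153944844-153944893, minus strand: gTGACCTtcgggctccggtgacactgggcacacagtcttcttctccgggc
Acadvl, chr11:70015488-70015537, minus strand: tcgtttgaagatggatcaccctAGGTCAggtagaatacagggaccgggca
Cd36, chr5:17836097-17836146, minus strand: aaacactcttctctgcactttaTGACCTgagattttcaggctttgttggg

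Of these 3 genes, Acadm was lower in Nkx2-5+/- hearts and Acadvl and Cd36 were not called. The full direct repeat read by the PPAR and RXR pair (AGGTCA, any 1 base, AGGTCA), which contains the half-site, was in 0 of the 8 windows and in 0.0396% of all promoters. The estrogen-related receptor element (TCA followed by AGGTCA, so that it also contains the half-site) was in 0 of 8 and 0.423%. The T-box half-site (AGG followed by TGTGA) was in 0 of 8 and 1.28%, the Nkx2-5 site CACTTAA in 0 of 8 and 2.41%, and the E-box CACGTG in 0 of 8 and 7.15%. A match is a description of letters and not of binding, and a missing match says only that these letters are not in this window.

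Most of the measured fatty acid genes were lower in Nkx2-5+/- hearts. Of the 9 measured genes, 6 fell against wild type (Lpl, Fabp3, Acadl, Acadm, Hadha and Ppargc1a), 0 rose, and Cd36, Acadvl and Ppara did not pass the test. Across all genes 7.89% were called in this comparison and 5.16% were called lower. The genes were chosen with earlier results of these data known, so these shares describe the set and do not test it. With all arrays the median log2 difference of the 9 genes was -0.56, beside -0.01 over all genes tested, and 9 of 9 differences were below 0, as were 52.4% of those of all genes. Without the array labelled Nkx2-5+/- replicate 3 Ppara was above 0 (0.035) and the others stayed below 0. The number of calls depended on single arrays. The count of 6 became 0 without Nkx2-5+/- replicate 2, 1 without Nkx2-5+/- replicate 4, 2 without wild-type replicate 1, 2 without wild-type replicate 4 and 3 without wild-type replicate 5, when 0.331%, 1.12%, 3.78%, 2.97% and 4.22% of all genes were called, and 7 without the array labelled Nkx2-5+/- replicate 3, when 21.9% were called. In whole hearts, fewer cells of a type and less RNA per cell cannot be told apart.

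**Figure D1:**
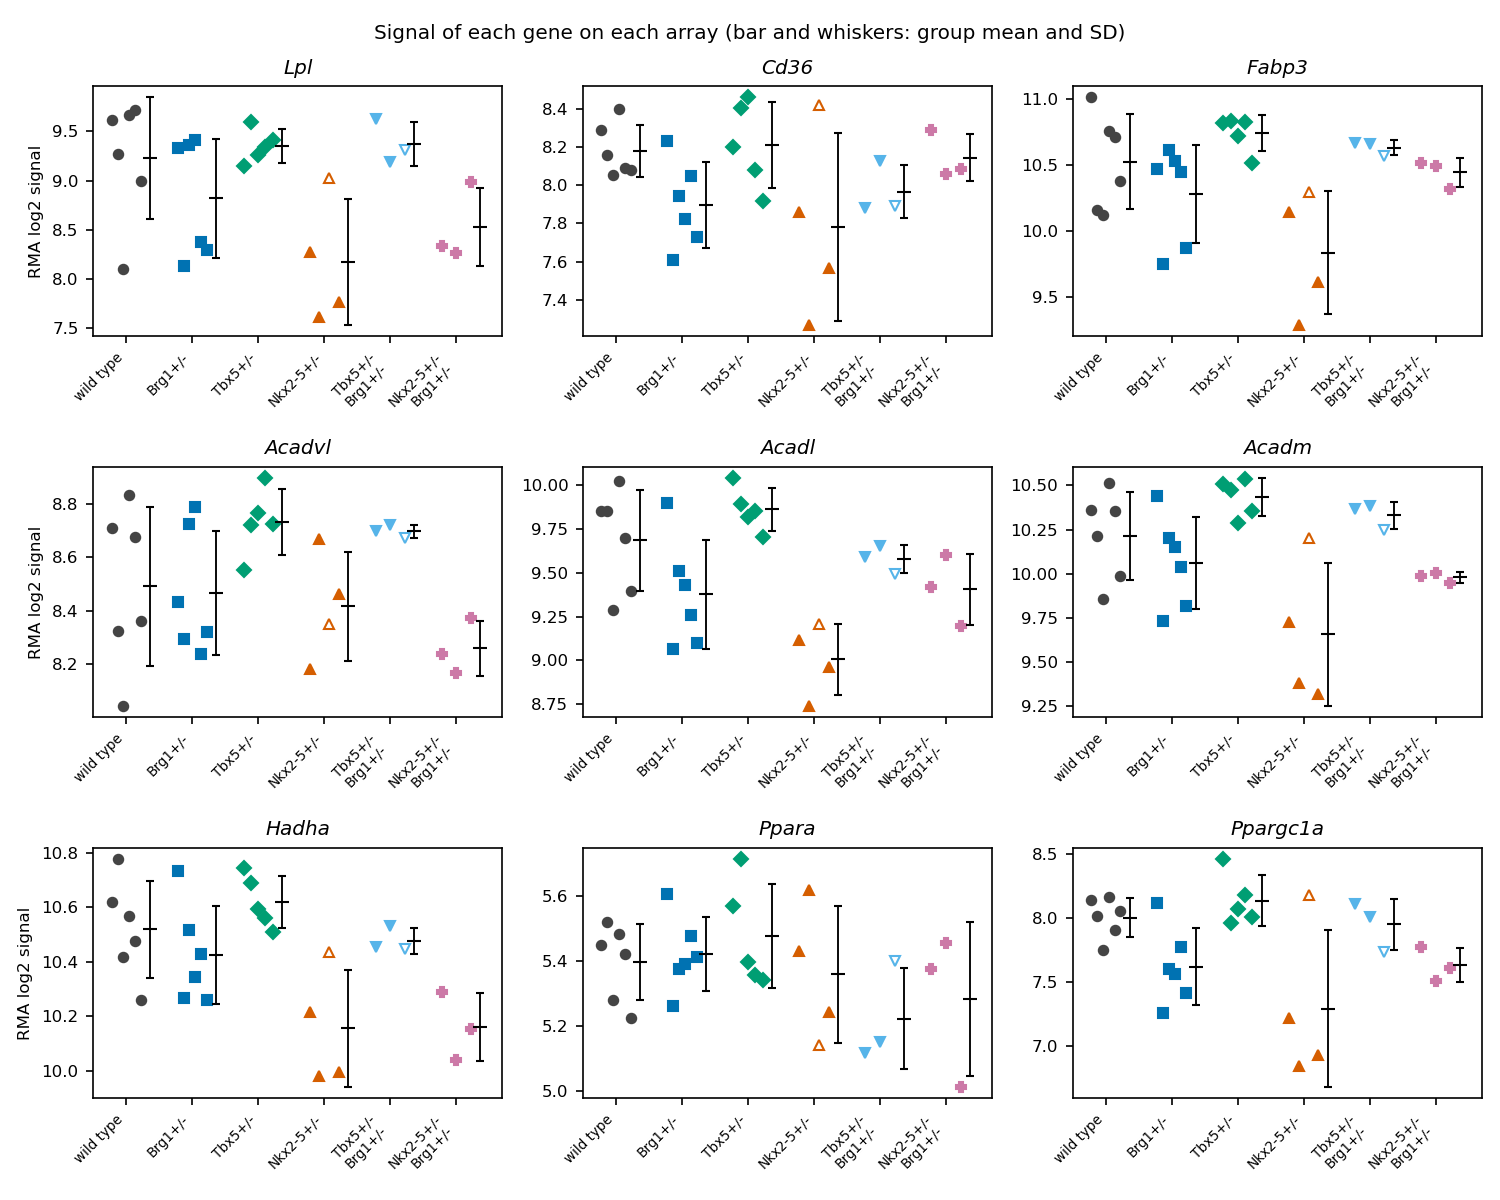
RMA log2 signal (vertical axes, each gene on its own scale) of the 9 measured genes on each of the 27 arrays, grouped by genotype, with the group mean and SD drawn to the right of the points. Open symbols are the arrays labelled Nkx2-5+/- replicate 3 and Tbx5+/- Brg1+/- replicate 3, and for Acadl all 4 Nkx2-5+/- arrays (8.74 to 9.21) lie below all 6 wild-type arrays (9.29 to 10.02).

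Lpl, the lipase that releases fatty acids from circulating lipoproteins, had the largest difference among the 9 genes. Wild-type arrays ran from 8.10 through a median of 9.44 to 9.72, and the Nkx2-5+/- arrays read 8.28, 7.61, 9.03 and 7.76. The lowest wild-type array, replicate 3, was lower than 2 of the 4 Nkx2-5+/- arrays, and the array labelled Nkx2-5+/- replicate 3 lay inside the wild-type range, so the groups overlap. The mean fell from 9.23 ± 0.62 (SD, n = 6) to 8.17 ± 0.64 (SD, n = 4), a 2.08-fold difference (log2 -1.06, SE 0.29, limma adjusted p = 0.0281). Without the array labelled Nkx2-5+/- replicate 3 the difference was -1.34 (adjusted p = 0.00167). Lpl also varied most within groups, with a residual SD of 0.513 that exceeded that of 98.8% of genes.

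Cd36, the membrane fatty acid translocase, is also expressed in endothelium, platelets and macrophages. Its wild-type arrays lay close together, from 8.055 through a median of 8.124 to 8.400, whereas the Nkx2-5+/- arrays read 7.86, 7.27, 8.42 and 7.57. The array labelled Nkx2-5+/- replicate 3 was the highest of these 10 arrays and the other 3 were below every wild-type array. The log2 difference was -0.40 (SE 0.15, adjusted p = 0.107) with that array and -0.61 (adjusted p = 0.00174) without it, so the call for Cd36 depends on that array.

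Fabp3, which binds fatty acids in the cytoplasm of cardiomyocytes, ran from 10.12 through a median of 10.55 to 11.01 in wild type. The Nkx2-5+/- arrays read 10.15, 9.29, 10.29 and 9.62. Replicates 2 and 4 were below the wild-type range and the other 2 were within its lower end. Fabp3 fell 1.61-fold (log2 -0.69, SE 0.19, adjusted p = 0.0253), and the difference was -0.84 (adjusted p = 0.00234) without the array labelled Nkx2-5+/- replicate 3. A second probe set assigned to Fabp3 gave -0.73.

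Among the acyl-CoA dehydrogenases, which catalyse the first step of each oxidation cycle, Acadl and Acadm fell and Acadvl was not called. Acadl, the long-chain enzyme, ran from 9.29 through a median of 9.78 to 10.02 in wild type and read 9.11, 8.74, 9.21 and 8.96 on the Nkx2-5+/- arrays. It was the 1 gene of the 9 whose Nkx2-5+/- arrays all lay below all wild-type arrays, the array labelled replicate 3 included. The mean fell from 9.69 ± 0.29 (SD, n = 6) to 9.01 ± 0.20 (SD, n = 4), a log2 difference of -0.68 (SE 0.15, adjusted p = 0.00907). The value without the array labelled Nkx2-5+/- replicate 3 was -0.75 (adjusted p = 0.00106). The share of all genes whose arrays separate between groups was not counted, in this or later comparisons, so a separation describes these arrays only.

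Acadm, the medium-chain enzyme, ran from 9.86 through a median of 10.28 to 10.51 in wild type, and the Nkx2-5+/- arrays read 9.73, 9.38, 10.20 and 9.32. Replicates 1, 2 and 4 were below the wild-type range and the array labelled replicate 3 stood near the wild-type mean. Acadm fell 1.47-fold (log2 -0.56, SE 0.15, adjusted p = 0.0218), with -0.74 (adjusted p = 0.000339) without that array. Acadvl, the very-long-chain enzyme, had Nkx2-5+/- values of 8.18, 8.67, 8.35 and 8.46, all inside the wild-type range of 8.05 to 8.83. Its difference was -0.07 (95% interval -0.34 to 0.20, adjusted p = 0.81), and -0.05 without the array labelled Nkx2-5+/- replicate 3.

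Since Acadl and Acadvl act on overlapping substrates, their signals were also subtracted within each array, a comparison chosen after their values were seen. A difference between probe sets has no meaning of its own, so only its change between groups is read. Acadl minus Acadvl was 1.19 ± 0.19 (SD, n = 6) in wild type, from 1.02 to 1.53, and 0.59 ± 0.39 (SD, n = 4) in Nkx2-5+/- hearts, from 0.07 to 0.93, so the groups did not overlap. The change was -0.61 with all arrays and -0.69 without the array labelled Nkx2-5+/- replicate 3. Acadm minus Acadvl changed by -0.48, or -0.69 without that array, and Acadl minus Acadm by -0.12, or -0.01 without it. These values are a description and carry no test.

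Hadha, which carries the hydratase and long-chain hydroxyacyl-CoA dehydrogenase steps that follow, had the smallest difference among the 6 called genes, and its residual SD was 0.159. Wild-type arrays ran from 10.26 through a median of 10.52 to 10.78, and the Nkx2-5+/- arrays read 10.21, 9.98, 10.43 and 9.99. Replicates 1, 2 and 4 were below the wild-type range. Hadha fell 1.29-fold (log2 -0.36, SE 0.11, adjusted p = 0.0357), and the difference was -0.46 (adjusted p = 0.00289) without the array labelled Nkx2-5+/- replicate 3.

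Of the regulators, the coactivator fell and the receptor was not called. Ppargc1a ran from 7.75 through a median of 8.03 to 8.16 in wild type and read 7.22, 6.84, 8.17 and 6.93 on the Nkx2-5+/- arrays. Replicates 1, 2 and 4 were below the wild-type range, and the array labelled replicate 3 was above it. The mean fell from 8.001 ± 0.156 (SD, n = 6) to 7.29 ± 0.61 (SD, n = 4), which is 1.64-fold (log2 -0.71, SE 0.18, adjusted p = 0.019), and the difference was -1.005 (adjusted p = 4.39e-05) without that array. The second probe set of Ppargc1a gave -0.67. Ppara had a low signal, above that of 30.8% of genes, with Nkx2-5+/- values of 5.43, 5.62, 5.14 and 5.24 around a wild-type range of 5.22 to 5.52. The difference for Ppara was -0.04 (95% interval -0.26 to 0.18, adjusted p = 0.895), and 0.035 without the array labelled Nkx2-5+/- replicate 3.

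**Figure D2:**
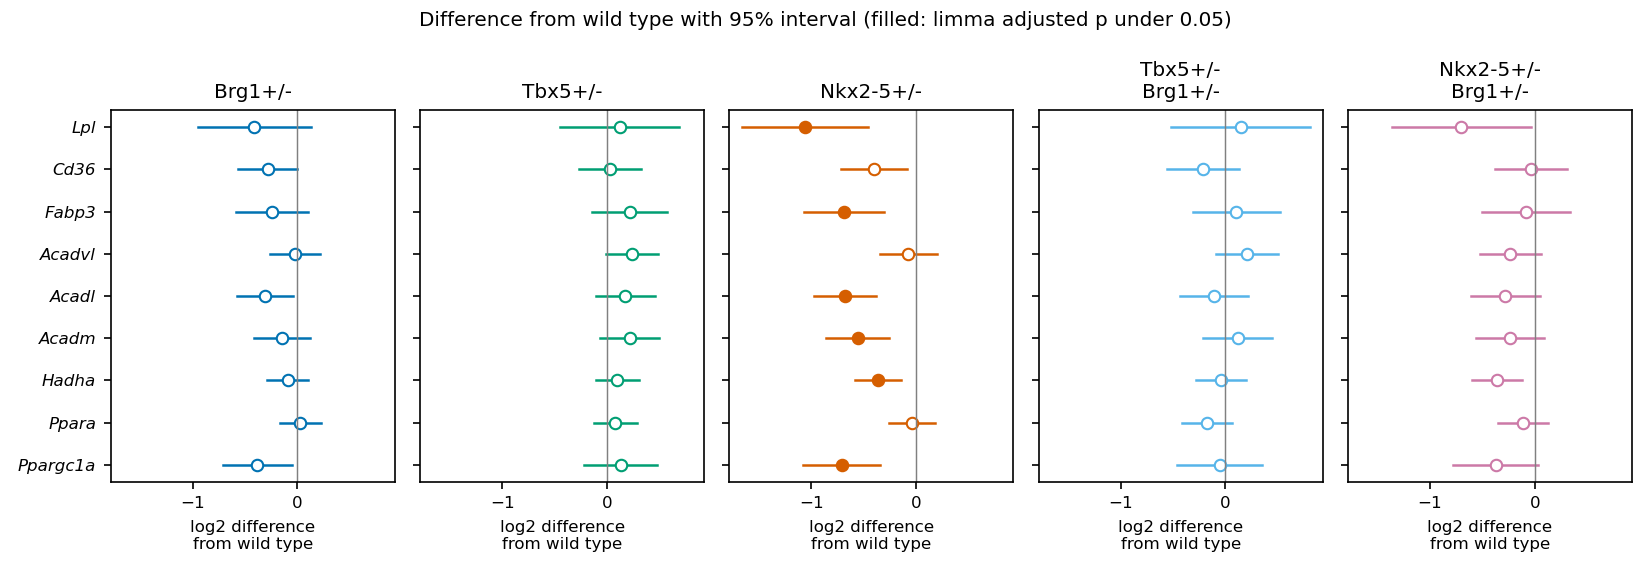
Log2 difference from wild type (horizontal axis) of each of the 9 genes in the 5 mutant groups, with its 95% interval from the limma fit; filled points passed an adjusted p of 0.05. The 6 filled points are all in Nkx2-5+/- hearts, from -0.36 for Hadha to -1.06 for Lpl, and the intervals of the smaller groups are wide.

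Markers of several cell types moved with these genes on the same arrays. Of the 18 cardiomyocyte markers, 12 were lower in Nkx2-5+/- hearts (median log2 difference -0.50), and the mean of the list ran from 10.83 to 11.89 on Nkx2-5+/- arrays and from 11.40 to 11.94 in wild type. Of the 12 measured erythroid markers, 4 were higher (median 1.30), with list means from 8.62 to 10.69 against 8.11 to 9.70. Among all 19935 genes 1029 were called lower and 543 higher. Of the 12 macrophage markers, 3 were lower (median -0.43), with list means from 5.54 to 6.17 against 6.08 to 6.60. Without the array labelled Nkx2-5+/- replicate 3, a setting added for these lists after seeing the data, 15 cardiomyocyte markers were lower (median -0.70), all 12 erythroid markers were higher (median 1.91) and 1 macrophage marker was lower (median -0.24). That array had the highest cardiomyocyte mean (11.89) and the lowest erythroid mean (8.62) of its group, and it was also the array on which 7 of the 9 genes were highest within the group. Other marker lists moved too. Of 8 epicardial markers 3 were lower (median -0.38), or 4 (median -0.34) without that array. Liver had a median of -0.55, endothelium -0.27, cushion mesenchyme -0.26, skeletal muscle -0.04 and platelets 0.37, with 0 called in each. Without that array these medians were -0.41, -0.35, -0.23, 0.10 and 0.76. Then 2 of 10 cushion markers were lower and 4 of 7 platelet markers higher. None of these markers is at 0, since array signals have no true zero.

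**Figure D3:**
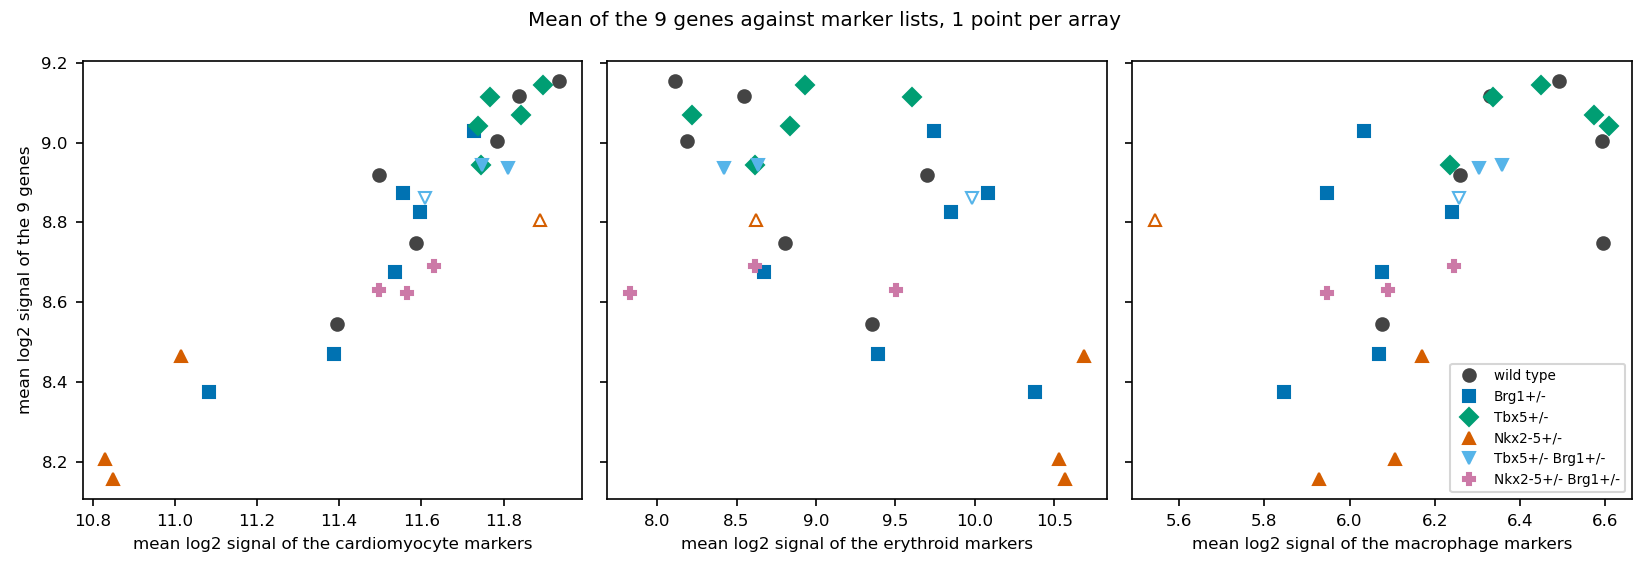
Mean log2 signal of the 9 genes (vertical axis) against the mean log2 signal of the cardiomyocyte, erythroid and macrophage markers (horizontal axes), with 1 point per array and open symbols for the arrays labelled Nkx2-5+/- replicate 3 and Tbx5+/- Brg1+/- replicate 3. The 3 filled Nkx2-5+/- points have the lowest cardiomyocyte means (10.83 to 11.01) and the open one has 11.89.

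When the mean of a marker list was added to the fit as a covariate, the differences moved by different amounts. With the erythroid mean, 0 of the 9 genes were called (0.0201% of all genes), and the differences of the 6 genes ran from -0.34 for Acadm and Hadha to -0.80 for Lpl. Adjusted p was 0.304 for Acadl, the lowest. With the cardiomyocyte mean, 0 genes were called among the 9 and 0% among all genes, Acadl had -0.36 (95% interval -0.66 to -0.06, adjusted p = 0.641) and Lpl had -0.24. With the macrophage mean, 3 were called (7.68% of all genes), namely Acadl (-0.65, adjusted p = 0.0408), Hadha (-0.46, adjusted p = 0.0416) and Ppargc1a (-0.87, adjusted p = 0.032). Without the array labelled Nkx2-5+/- replicate 3, also added after seeing the data, the erythroid mean left 2 genes called, Ppargc1a and Hadha (3.74% of all genes), the cardiomyocyte mean 0 (0% of all genes) and the macrophage mean 4, Acadl, Acadm, Ppargc1a and Hadha (13.9% of all genes). In that setting 3 of the 9 differences were below 0 with the cardiomyocyte mean, and their median was 0.09. With the erythroid and the macrophage mean 7 were below 0, each with a median of -0.54. These covariates are measured on the same arrays and differ between the genotypes, so a change in cell composition and a change in the genes themselves cannot be told apart with them.

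**Figure D4:**
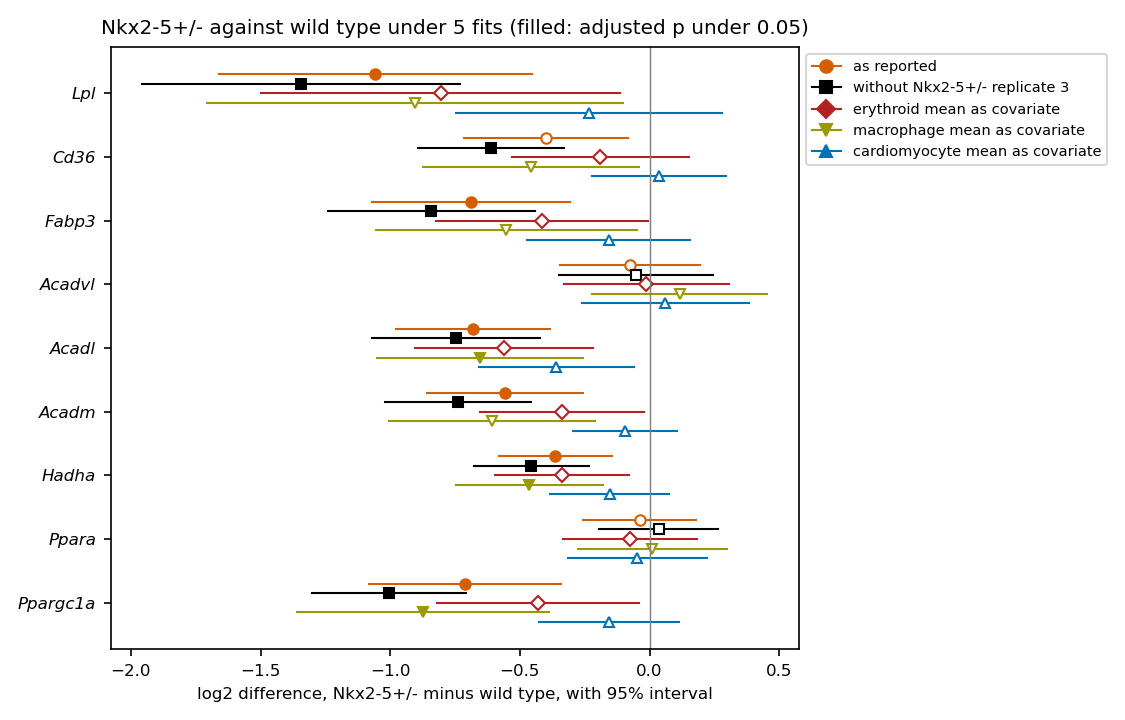
Log2 difference between Nkx2-5+/- and wild-type hearts (horizontal axis, with 95% intervals) for the 9 genes under 5 fits, with filled symbols where adjusted p was under 0.05. Lpl moves from -1.06 as reported to -1.34 without the array labelled Nkx2-5+/- replicate 3 and to -0.24 with the cardiomyocyte mean as a covariate.

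The same 6 genes were lower when Nkx2-5+/- hearts were set against Tbx5+/- hearts, where 11.2% of all genes were called and 7.72% were called lower. These comparisons share the Nkx2-5+/- arrays. How many of all genes have arrays without overlap was not counted here either. The Tbx5+/- arrays read 10.04, 9.90, 9.82, 9.86 and 9.70 for Acadl, and all were above the Nkx2-5+/- arrays (log2 -0.86, SE 0.15, adjusted p = 0.00116). Arrays did not overlap for Acadm (-0.78, adjusted p = 0.00258), Lpl (-1.18, adjusted p = 0.0133), Fabp3 (-0.91, adjusted p = 0.00421) or Hadha (-0.46, adjusted p = 0.00857) either, with the array labelled Nkx2-5+/- replicate 3 included. Those of Ppargc1a overlapped through that array (-0.84, adjusted p = 0.00555). Without it 7 genes were called, beside 22.8% of all genes, Cd36 being the added one (-0.64, adjusted p = 0.00132), and the differences of the other 6 ran from -0.56 for Hadha to -1.47 for Lpl.

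The same marker lists moved in the comparison with Tbx5+/- hearts. Of the cardiomyocyte markers 14 of 18 were lower (median -0.61, or 16 and -0.84 without the array labelled Nkx2-5+/- replicate 3), of the erythroid markers 4 of 12 were higher (median 1.16, or 12 and 1.78), and of the macrophage markers 4 of 12 were lower (median -0.45, or 2 and -0.30). With the erythroid mean as a covariate the count of the 9 genes went from 6 to 1, Acadl (-0.74, adjusted p = 0.0466), beside 0.446% of all genes, and with the cardiomyocyte mean it went to 0, beside 0%. Without that array the counts with these covariates were 5 (6.16% of all genes) and 0 (0%). In those fits 9 of the 9 differences were below 0 with the erythroid mean (median -0.76) and 2 with the cardiomyocyte mean (median 0.06).

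In a test for any difference among the 6 groups, 4 of the 9 genes passed, beside 3.19% of all genes. They were Acadl (adjusted p = 0.0154), Acadm (0.0312), Ppargc1a (0.0434) and Hadha (0.0447). Without the array labelled Nkx2-5+/- replicate 3 the number was 7 (16.5% of all genes), and it was 0 without Nkx2-5+/- replicate 2 (0.311%) or 4 (0.497%). It was 1 or 2 without Nkx2-5+/- replicate 1, Brg1+/- replicate 4 or 6, any 1 of the Tbx5+/- arrays, replicate 1 or 2 of either compound group, or wild-type replicate 1, 4 or 5, when 1.15% to 2.65% of all genes passed.

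In Brg1+/- hearts 0 of the 9 genes were called by limma, as were 0.0100% of all genes. Differences were below 0 for 8 of 9 genes, with a median of -0.24 beside -0.02 over all genes, and 3 of the 9 had an unadjusted p under 0.05, as had 9.71% of all genes. Those were Acadl (-0.31, adjusted p = 0.45), Ppargc1a (-0.38, adjusted p = 0.45) and Cd36 (-0.28, adjusted p = 0.514). For Ppargc1a the second probe set gave -0.17. Marker lists shifted in the same hearts with 0 called, since all 12 erythroid markers were above 0 (median 0.92), 17 of 18 cardiomyocyte markers below 0 (median -0.20) and all 12 macrophage markers below 0 (median -0.41). With the erythroid mean as a covariate the median of the 9 genes was -0.08, and the values were -0.23 for Acadl, -0.19 for Ppargc1a and -0.14 for Cd36, each with an adjusted p of 1. With the cardiomyocyte mean the median was -0.05. Lpl fell into separate levels within this group, with 9.33, 9.37 and 9.41 on replicates 1, 3 and 4 and 8.13, 8.38 and 8.30 on replicates 2, 5 and 6. Averaged over the 9 genes, the log2 difference from the wild-type mean was -0.54 on replicate 2, -0.45 on replicate 6 and 0.11 on replicate 1.

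In Tbx5+/- hearts the sign was, with all arrays, opposite to that in Nkx2-5+/- hearts for all 9 genes, with no call. Without the array labelled Nkx2-5+/- replicate 3, Ppara had 0.035 in Nkx2-5+/- hearts, the same sign as in Tbx5+/- hearts (0.08). Both comparisons share the wild-type arrays. All 9 differences between Tbx5+/- and wild type were above 0, from 0.03 for Cd36 to 0.24 for Acadvl with a median of 0.13. Of these genes 0 passed limma's adjusted test or an unadjusted p of 0.05, beside 0% called and 3.95% with an unadjusted p under 0.05 among all genes. The SD of the Tbx5+/- arrays (n = 5) was above that of wild type (n = 6) for Cd36 (0.225 against 0.138), Ppargc1a (0.197 against 0.156) and Ppara (0.160 against 0.117). It was below that of wild type for the other genes, with the widest gap for Lpl (0.17 against 0.62). The 95% intervals reached 0.46 for Acadl and 0.69 for Lpl.

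In the compound heterozygotes, Tbx5+/- Brg1+/- hearts had 0 of 9 genes called against wild type (0% of all genes), with a median difference of -0.04 and 0 of 9 at an unadjusted p under 0.05. For Ppargc1a the probe sets differed here, with -0.05 for the one used and -0.39 for the second. Against Tbx5+/- hearts 0 were called (0% of all genes), and Ppara alone had an unadjusted p under 0.05 (-0.25, adjusted p = 1). Acadl read 9.59, 9.65 and 9.50 there, all below the 5 Tbx5+/- arrays (-0.28, adjusted p = 1). Against Brg1+/- hearts 0 were called (0% of all genes), with a median of 0.23. The interaction of Tbx5 and Brg1 subtracts the Brg1 difference among hearts with both Tbx5 copies from that among Tbx5+/- hearts, and it had 0 calls among the 9 and 0% among all genes. Its values ran from -0.28 for Ppara to 0.43 for Lpl. Leaving out the array labelled Tbx5+/- Brg1+/- replicate 3 gave 0 calls in these 4 comparisons too.

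Nkx2-5+/- Brg1+/- hearts had, with all arrays, a mean between those of wild type and Nkx2-5+/- for 7 of the 9 genes. Against wild type 0 were called (0.0351% of all genes), all 9 differences were below 0 with a median of -0.24, and Lpl (-0.70, adjusted p = 0.655) and Hadha (-0.36, adjusted p = 0.517) had an unadjusted p under 0.05. Lpl read 8.34, 8.26 and 8.98, and Hadha 10.29, 10.04 and 10.15, so that 2 of 3 Hadha arrays were below the wild-type range. Cd36 (8.29, 8.06 and 8.09) and Fabp3 (10.52, 10.49 and 10.32) were within it. Against Brg1+/- hearts 0 were called (0.0201% of all genes), with a median of -0.08.

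Set against Nkx2-5+/- hearts, the compound heterozygotes had 0 of 9 genes called (0.0401% of all genes) and 2 with an unadjusted p under 0.05, Acadl (0.40, adjusted p = 0.243) and Fabp3 (0.61, adjusted p = 0.155). All 3 Fabp3 arrays of the compound group were above all 4 Nkx2-5+/- arrays, a separation that was not counted over all genes. Without the array labelled Nkx2-5+/- replicate 3, 4 genes were called higher in the compound group (11.6% of all genes). They were Fabp3 (0.76, adjusted p = 0.0263), Ppargc1a (0.63, adjusted p = 0.0135), Cd36 (0.58, adjusted p = 0.0169) and Acadm (0.50, adjusted p = 0.0366). Cardiomyocyte markers had a median difference of 0.41 in the comparison with all arrays, with 0 of 18 called, and erythroid markers -1.55, with 0 of 12 called. These were 0.68 with 15 called higher and -1.998 with 11 called lower without the array labelled Nkx2-5+/- replicate 3. Without that array, 0 of the 9 genes were called with the erythroid or the cardiomyocyte mean as a covariate (0% of all genes with each). The median of the 9 differences was 0.33 with the erythroid mean, with 2 below 0, and -0.24 with the cardiomyocyte mean, with 7 below 0.

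The interaction of Nkx2-5 and Brg1 asks whether losing a Brg1 copy had another effect in Nkx2-5+/- hearts than in hearts with both Nkx2-5 copies. None of the 9 genes passed limma's adjusted test, beside 4.95% of all genes, and 5 had an unadjusted p under 0.05, as had 20.2% of all genes. The nearest to a call were Acadl (0.71, SE 0.22, adjusted p = 0.0528), Fabp3 (0.85, SE 0.28, adjusted p = 0.0696) and Cd36 (0.65, SE 0.23, adjusted p = 0.0947). Ppargc1a had 0.72 (adjusted p = 0.115), Acadm 0.47 (adjusted p = 0.211) and Lpl 0.77 (adjusted p = 0.344). Hadha, which was as low in the compound group as in Nkx2-5+/- hearts, had 0.10 (95% interval -0.23 to 0.42, adjusted p = 0.811).

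Without the array labelled Nkx2-5+/- replicate 3, 5 of the 9 genes passed for this interaction, beside 16.2% of all genes. They were Ppargc1a (1.02, adjusted p = 0.00145), Cd36 (0.86, adjusted p = 0.00322), Fabp3 (1.004, adjusted p = 0.0125), Acadl (0.78, adjusted p = 0.0168) and Acadm (0.65, adjusted p = 0.0199). The count was 2 without wild-type replicate 3 (5.69% of all genes), and 1 without wild-type replicate 2 (7.41%) or 6 (3.53%), Brg1+/- replicate 1 (4.29%) or Nkx2-5+/- Brg1+/- replicate 3 (5.29%). A positive value means that the compound group was higher than the sum of the single effects. In the fit with all arrays 11 of the 12 erythroid markers were called lower for the same interaction (median -2.43) and 1 of 18 cardiomyocyte markers was called higher (median 0.67). The numbers were 12 (median -3.01) and 15 (median 0.89) without the array labelled Nkx2-5+/- replicate 3. With the erythroid mean as a covariate Ppargc1a had 0.22 and Acadl 0.50, both with an adjusted p of 1, and without that array 0 of the 9 genes were called with this covariate (0% of all genes). The median was then 0.52, with 2 of 9 values below 0. With the cardiomyocyte mean and without that array 0 were called (0% of all genes), and the median was -0.27, with 7 of 9 values below 0.

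Ranked by group mean, Tbx5+/- hearts were first for 8 of the 9 genes, with Lpl the exception, where Tbx5+/- Brg1+/- hearts were first (9.37 against 9.35). Nkx2-5+/- hearts were last for 7 genes, and these counts of 8 and 7 were the same without the array labelled Nkx2-5+/- replicate 3. Acadvl was lowest in Nkx2-5+/- Brg1+/- hearts (8.26 ± 0.10, SD, n = 3) and Ppara in Tbx5+/- Brg1+/- hearts (5.22 ± 0.15, SD, n = 3). Neighbouring groups in these orders overlapped in all 45 steps, and the widest step was 1.67 residual SD, for Hadha between Brg1+/- (10.43) and Nkx2-5+/- Brg1+/- hearts (10.16), so no neighbours were separated beyond their spread.

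Likeness of pattern was measured as the root mean square difference of log2 signals over the 27 arrays after each gene was centred on its own mean, where a smaller value is more alike. Among the 9, Acadl and Acadm were the closest pair (0.142) and Lpl and Ppara the farthest (0.634). Acadm was nearest to the mean of the 9 genes (0.077). Ppara, at 0.290, was farther from that mean than from a flat line (0.160), and so, by little, was Acadvl (0.242 against 0.236). Across all genes the closest to the mean of the 9 were Pdha1 (0.068), the E1 alpha subunit of pyruvate dehydrogenase, then Mtus2 (0.093), Cdip1 (0.094), Acaa2 (0.101), the mitochondrial 3-ketoacyl-CoA thiolase, and Aldh6a1 (0.102), where a flat profile would be at 0.277. The genes nearest to single members were Acad8 (0.082) and Rtl8c (0.091) for Acadm, Aldh6a1 (0.137) and Abat (0.141) for Acadl, and Klhl7 (0.086) and Tgm2 (0.092) for Hadha. Those for Fabp3 were Pkia (0.135) and Bcam (0.140), those for Ppargc1a were Ppp1r14c (0.135) and Fermt2 (0.136), and those for Lpl were Pygm (0.244) and Pfkp (0.255). These distances describe arrays that share their genotype groups and cell makeup, and carry no test.

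Other genes of the pathway, and of energy metabolism beside it, are given from lists that exclude the 9 genes. The mitochondrial beta-oxidation list also holds Acadsb, Acad8, Ivd and Gcdh, acyl-CoA dehydrogenases of amino acid breakdown. The 9 lists include citric acid cycle and pyruvate entry (9 of 21 lower) and glucose uptake and glycolysis (8 of 17 lower), so the pooled counts are not of fatty acid genes alone. All lists were chosen with earlier results of these data known, so counts set beside the share of all genes are a description and not a test. Of 120 measured genes in 9 lists, 42 were lower and 1 was higher in Nkx2-5+/- hearts than in wild type, with a median log2 difference of -0.30, beside 5.16% of all genes called lower. Of the 120, 73 were lower and 4 higher (median -0.40) without the array labelled Nkx2-5+/- replicate 3, beside 15.3% of all genes called lower. The count of 42 became 2 without Nkx2-5+/- replicate 2, 6 without replicate 4 and 21 without replicate 1 of that group, and 22, 17 and 23 without wild-type replicate 1, 4 and 5, when 0.286%, 0.893%, 3.37%, 2.70%, 2.13% and 3.09% of all genes were called lower. In each of the other 4 comparisons with wild type 0 of the 120 were called. The largest share was in mitochondrial beta-oxidation, where 13 of 19 were lower (median -0.38), or 17 (median -0.50) without the array labelled Nkx2-5+/- replicate 3. Examples are Echs1, the short-chain enoyl-CoA hydratase (-0.69, adjusted p = 0.00573, and -0.86 without that array), the thiolase Acaa2 (-0.67, adjusted p = 0.00703), the short-chain hydroxyacyl-CoA dehydrogenase Hadh (-0.65, adjusted p = 0.00734) and the dienoyl-CoA reductase Decr1 (-0.53, adjusted p = 0.0142).

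In uptake, binding and activation 4 of 13 were lower (median -0.21), among them the lipoprotein receptor Vldlr (-1.004, adjusted p = 0.00229, and -1.16 without the array labelled Nkx2-5+/- replicate 3) and the fatty acid binding protein Fabp4 (-0.58, adjusted p = 0.0138), which is also found in endothelium and macrophages. Of the carnitine shuttle 1 of 9 was lower, Cpt2 of the inner membrane (-0.51, adjusted p = 0.0233), with a list median of -0.25. Among peroxisomal genes 3 of 8 were lower (median -0.37), Hsd17b4 (-0.41), Crot (-0.46) and Abcd3 (-0.44). The lists of PPAR target genes (3 of 10 lower, median -0.17) and of triglyceride storage and breakdown (2 of 14 lower, median -0.08) had smaller medians. Among the former, Pdk4, a kinase that restrains pyruvate dehydrogenase, had -0.74 (adjusted p = 0.0142).

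Of 17 other regulators, the nuclear receptor Esrrb was lower (-0.70, adjusted p = 0.00371, and -0.78 without that array) and Nrf1, an activator of mitochondrial genes, was higher (0.40, adjusted p = 0.0485), with a list median of -0.06. The change was not limited to lipid genes. In the citric acid cycle and pyruvate entry 9 of 21 were lower (median -0.40), with Idh3a at -0.60 (adjusted p = 0.0194) and Suclg1 at -0.59 (adjusted p = 0.0156). In glucose uptake and glycolysis 8 of 17 were lower (median -0.45), with the lactate dehydrogenase subunit Ldhb at -0.97 (adjusted p = 0.00573) and the muscle enolase Eno3 at -0.75 (adjusted p = 0.0177). When the array labelled Nkx2-5+/- replicate 3 was left out, the counts of lower genes were 7 of 13 in uptake, binding and activation, 5 of 9 in the carnitine shuttle, 4 of 8 among peroxisomal genes, 4 of 10 PPAR targets, 3 of 14 in triglyceride storage, 4 of 17 regulators, 18 of 21 in the citric acid cycle and 14 of 17 in glycolysis. These counts stand beside 5.16% of all genes called lower, or 15.3% without that array, and, as for the 9 genes, beside the lower cardiomyocyte markers of the same arrays.

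**Figure D5:**
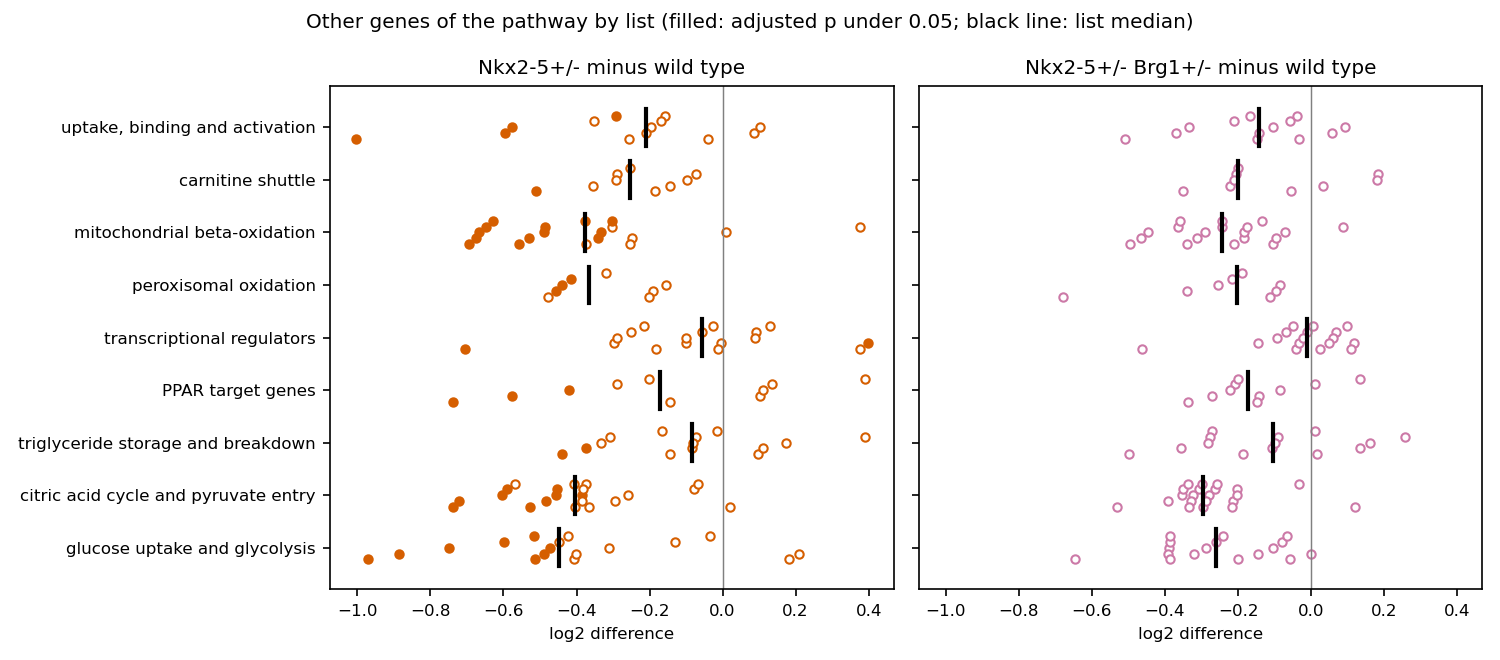
Log2 difference from wild type (horizontal axis) of the other pathway genes and of citric acid cycle and glycolysis genes by list, in Nkx2-5+/- and in Nkx2-5+/- Brg1+/- hearts, with 1 point per gene, filled where limma's adjusted p was under 0.05, and a black line at the median of each list. In Nkx2-5+/- hearts the beta-oxidation median is -0.38 with 13 of 19 genes filled, and in the compound heterozygotes 0 genes are filled.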

How the data were processed

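Total RNA of whole hearts was hybridised to 1 array for each sample, per the labels. Per the submitters' processing notes, the authors used RMA and Affymetrix Power Tools, and the deposited values are log2 signals of 28815 probe sets on 27 arrays, used as deposited, with array medians from 6.18 to 6.33. Versions and the genome build are not given in the sources used here. RMA makes array distributions alike, so a shift shared by most genes would not be seen. Arrays carry no read depth, and their number limits the precision.

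Of the probe sets, 21780 had 1 gene symbol in the platform annotation, 5430 had no entry and 1605 had several. Those with 1 symbol were used, and the one with the highest mean over all arrays stood for a gene. Groups were fitted together with limma 3.58.1 in R 4.3.3 (21 residual and 6.71 prior degrees of freedom). Tests were two-sided, and p-values were adjusted by the Benjamini-Hochberg method over the 19935 genes within each of 12 comparisons and in a test among the 6 groups. Called means an adjusted p below 0.05. Before use, the fit was tested on simulated data. Plots were drawn in Python 3.11.15 (matplotlib 3.10.9).

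The 10 genes and all lists were chosen with earlier results of these data known. In each comparison the 9 measured genes were reported. Up to 4 called genes with the smallest p could be named from each pathway list, of which some are left out, as well as the genes nearest in pattern, passing over clone-like names. Alternatives were 13 other settings, each of the 27 arrays left out in turn, and the arrays labelled Nkx2-5+/- replicate 3 and Tbx5+/- Brg1+/- replicate 3 left out together. The lists and covariate fits without Nkx2-5+/- replicate 3 were added after seeing the data.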

Additional observations from a re-analysis of the deposited data

How the results depend on the processing

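Results are counts of the 9 genes called by limma, as reported and under 14 alternatives and 27 arrays left out in turn. For Nkx2-5+/- against wild type 6 became 0 with the arrays of these groups alone (0.0201% of all genes called), 0 with the erythroid mean as a covariate, 0 with the cardiomyocyte mean and 3 with the macrophage mean, and 0 to 7 with 1 array left out. Against Tbx5+/- 6 became 1 with the erythroid and 0 with the cardiomyocyte mean, and 4 to 7 with 1 array left out. The test among the 6 groups went from 4 to 2 with array medians made equal, 8 with array weights, 0 with the erythroid, cardiomyocyte or macrophage mean, 2 with the Y-linked mean, 7 without the arrays labelled Nkx2-5+/- replicate 3 and Tbx5+/- Brg1+/- replicate 3, and 0 to 7 with 1 array left out. Counts of 0 became 2 with array weights for Nkx2-5+/- Brg1+/- against wild type, and 5 with array weights, 4 without those 2 arrays and 0 to 4 with 1 array left out for Nkx2-5+/- Brg1+/- against Nkx2-5+/-. The interaction of Nkx2-5 and Brg1 went from 0 to 1 with further quantile normalization, 2 without the genes of lowest mean, 1 with a trended prior, 5 with array weights, 5 without those 2 arrays and 0 to 5 with 1 array left out. The cause of these changes was not tested. In the other comparisons the count stayed at 0 under all of these. Genes called as reported kept their sign in all 492 values under these 14 alternatives and 27 arrays left out, and uncalled genes changed sign in 122 of 3924. These settings share most of their arrays, so the values are not independent. The covariate fits without Nkx2-5+/- replicate 3 are not among them. There the cardiomyocyte mean left 3 of the 9 differences between Nkx2-5+/- and wild type below 0, where 9 were as reported, so called genes changed sign in that fit.

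Counts over all genes moved by more than 1.5 times in several settings. For Nkx2-5+/- against wild type they went from 1572 to 4 with the compared groups alone, 3744 with array weights, 4 with the erythroid mean, 0 with the cardiomyocyte mean and 4346 without the 2 arrays. For the interaction of Nkx2-5 and Brg1 they went from 987 to 25, 4235, 0, 0 and 3258 under the same settings and to 6 with the macrophage mean. For Nkx2-5+/- against Tbx5+/- they went from 2225 to 985, 4378, 89, 0 and 4556 under the same settings. The test among the 6 groups went from 636 to 1000 without the genes of lowest mean, 5785 with array weights, 26, 10 and 9 with the erythroid, cardiomyocyte and macrophage means and 3385 without the 2 arrays. For Nkx2-5+/- Brg1+/- against Nkx2-5+/- they went from 8 to 3680 with array weights, 2363 without the 2 arrays, 412 with the replicate block, 140 without the genes of lowest mean, 136 with further quantile normalization, 88 with a trended prior and 4 or fewer with the compared groups alone, equal medians or a covariate. Array weights gave 1156 in place of 7 for Nkx2-5+/- Brg1+/- against wild type and 1372 in place of 4 against Brg1+/-, where the block gave 97. Elsewhere, besides single arrays left out, these counts stayed at 11 or fewer.

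With the replicate number as a block, 2 of the 9 genes were called for the interaction of Nkx2-5 and Brg1 in place of 0, and the other counts of the 9 stayed within 1.5 times. Whether the numbers pair the arrays was not tested. Over 55 pairs of arrays with the same number in different groups the median correlation of their deviations was 0.012, and 18 pairs were over 0.1. Over 244 pairs with other numbers the median was -0.002, and 52 pairs were over 0.1. The correlations ran from -0.45 to 0.41 for the same number and from -0.50 to 0.47 for other numbers. Of 27 arrays, 8 correlated best with an array of their own number.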
